A study of Mus musculus with 16 samples.

Results

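Trgv1 and Trgv4 are variable segments of the T cell receptor gamma chain, and they are 2 of the 8251 genes that the array's annotation names from probe sets with a single symbol. They were chosen by measured values, namely their large differences between NKT cells and CD4 T cells in these same arrays, so that difference is described below and not tested. The annotation gives 3 probe sets (groups of short probes summarised as 1 value) for them: 1 for Trgv1 alone, 1 for Trgv4 alone, and 1 that carries the symbols of both Trgv4 and Trgv2 and is called the shared probe set below. Of the 7 gamma V segments in the RefSeq gene table of assembly GRCm38.p6, these 2 had a probe set of their own, and no gamma J segment, gamma C region or delta segment was named by any probe set, so the delta chain was not analysed here. Whether each probe set reads the variable segment itself or the part of the gamma transcript behind it was not tested, since probe sequences were not used here. Near-identical stretches of gamma segments can bind each other's probes, and each value is therefore uncertain as to the segment. For the same reason rearranged, expressed receptor chains and unrearranged segment transcripts cannot be told apart here.

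The arrays come from 6 sorted mouse lymphocyte groups in 3 pairs that set an innate-like population beside an adaptive one. From wild-type C57BL/6 spleens came NKT cells (NKT, n = 3), gated as CD3+CD4+NK1.1+, and conventional CD4 T cells (CD4T, n = 3), gated as CD3+CD4+NK1.1-. RTOC, a culture known in the labels by this abbreviation only, gave the other T cells, for which no strain is stated: CD8aaT cells (n = 3), gated as TCRb+CD8a+CD8b- and selected with 10 mM of the agonist Smcy as the labels write the dose, and CD8abT cells (n = 3), gated as TCRb+CD8a+CD8b+ and selected with 100 nM. Dose and lineage are thus the same factor, and both RTOC gates ask for the receptor beta chain at the cell surface. Peritoneal B1 cells (n = 2), gated as IgM(hi)IgD(int)CD11b+, and splenic B2 cells (n = 2), gated as IgM(int)IgD(hi)CD11b-, also from wild-type C57BL/6 mice, serve as the background for T cell receptor transcripts. Sorting yielded roughly 100000 cells for each animal-derived array and 50000 for each RTOC array. Ages are not stated. The number of arrays limits the precision, and whether replicates came from separate animals is not stated, so the p-values reflect only how much these arrays vary, which may be technical.

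A T cell receptor is a pair of chains, alpha with beta or gamma with delta, and each chain is assembled in the thymus by joining a V segment to downstream segments. The gamma locus rearranges early, before a thymocyte has committed to either lineage, and gamma rearrangements are found in many alpha-beta T cells, where their transcription is usually silenced. Gamma-delta T cells that carry the product of Trgv1 include a subset with NK1.1 and effector features like those of NKT cells. In the order of the RefSeq table, Trgv4 lies between Trgv7 and Trgv6 in the cluster that leads to Trgj1 and Trgc1, while Trgv2 and Trgv1 lie next to each other near Trgj2, Trgj4 and Trgc4.

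The gamma segments were at the level of B cells, or close to it, in CD4T cells and far above it in NKT, CD8abT and CD8aaT cells. Deposited values differ in scale between pairs (array medians of 49.6 to 54.1 in the splenic T pair, 30.4 to 31.9 in the RTOC pair and 69.2 to 76.1 in the B cell pair), so levels are first given on the log2 scale within a pair and then as percentile ranks, the share of the 12422 probe sets on an array that lie at or below the value. Pairs also differ in tissue or culture, which cannot be told apart from the cell type, and no test was made between pairs. In sorted bulk RNA a higher level cannot be told apart from more cells carrying the transcript.

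For Trgv1 the log2 level was 6.18, 6.32 and 6.45 in CD4T arrays 1, 2 and 3, and 10.40, 10.24 and 10.17 in NKT arrays 1, 2 and 3. Every NKT array was above every CD4T array, by 3.72 or more on the log2 scale. The RTOC arrays were all high: the CD8abT arrays read 11.39, 11.53 and 11.01, and the CD8aaT arrays 11.67, 11.76 and 11.50. Here the groups overlapped, because CD8aaT replicate 3 was below CD8abT replicate 2. B cells were low, with 6.35 and 6.38 in B2 and 6.35 and 5.97 in B1, and these groups overlapped as well.

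For Trgv4 the log2 level was 4.39, 4.53 and 4.58 in CD4T, and 8.47, 8.31 and 8.59 in NKT. Again no NKT array came near a CD4T array, the gap being 3.72. Among RTOC arrays, CD8abT gave 8.22, 8.44 and 8.59, whereas CD8aaT gave 9.28, 9.19 and 8.37. CD8aaT replicates 1 and 2 were above all CD8abT arrays, and replicate 3 was inside their range. B2 arrays read 4.78 and 4.64 and B1 arrays 4.99 and 4.77, with overlap.

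The shared probe set gave 5.04, 5.26 and 5.27 in CD4T and 9.98, 9.57 and 9.56 in NKT. The gap between these groups was 4.28. In the RTOC pair it gave 9.22, 9.25 and 9.65 in CD8abT and 9.77, 9.60 and 9.05 in CD8aaT, with overlap. In B2 it gave 5.03 and 4.92 and in B1 4.93 and 4.94. CD8aaT replicate 3 was the lowest CD8aaT array for all 3 probe sets.

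**Figure D1:**
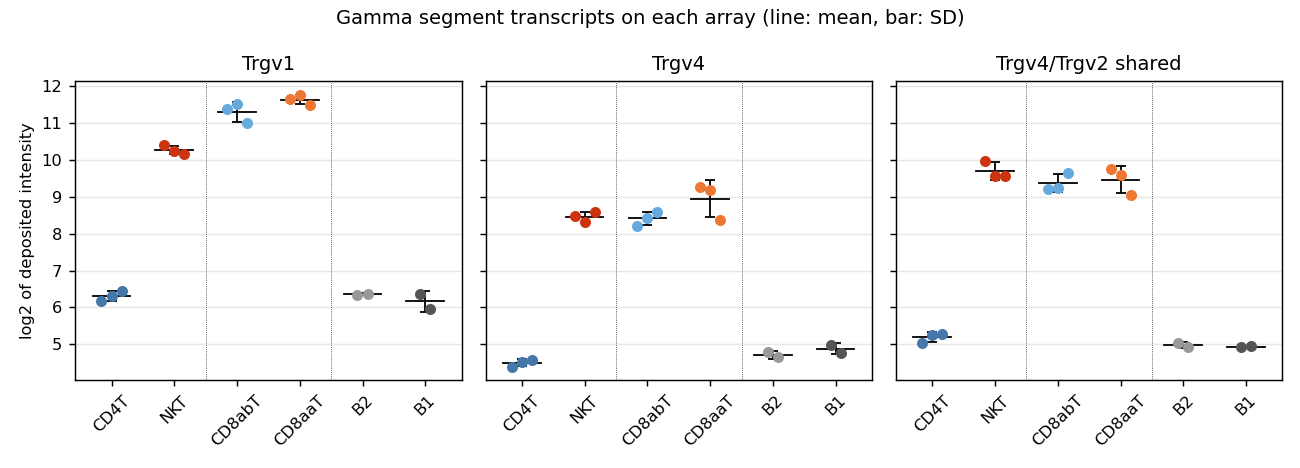
log2 of the deposited intensity (vertical axis) of Trgv1, Trgv4 and the probe set shared by Trgv4 and Trgv2, with 1 point per array in the 6 groups, a line at the group mean and a bar for the SD; dotted lines separate the 3 pairs, whose scales differ. NKT, CD8abT and CD8aaT arrays are high and CD4T, B2 and B1 arrays low in each panel, and only the NKT and CD4T groups are separated within their pair.

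As ranks within the array, Trgv1 stood at the 61.5 ± 2.94 percentile (SD, n = 3) in CD4T, 98.3 ± 0.33 in NKT, 99.5 ± 0.17 in CD8abT and 99.6 ± 0.079 in CD8aaT. In the B cell groups it stood at 52.8 ± 1.29 in B2 and 49.8 ± 3.89 in B1 (SD, n = 2 each). From the top, the order was CD8aaT, CD8abT, NKT, CD4T, B2 and B1. CD8aaT and CD8abT overlapped, as did B2 and B1, and every other neighbouring pair of groups was separated.

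Trgv4 stood at the 27.6 ± 4.72 percentile in CD4T, 90.8 ± 1.41 in NKT, 95.1 ± 0.58 in CD8abT and 96.3 ± 1.5 in CD8aaT. In B cells it stood at 18.3 ± 1.25 in B2 and 23.2 ± 1.05 in B1. The order was CD8aaT, CD8abT, NKT, CD4T, B1 and B2, with overlap between the RTOC groups and between CD4T and B1. CD4T arrays ranged from 22.3 to 31.3 and B1 arrays from 22.4 to 23.9, so for Trgv4 the CD4T cells were not separated from the B cell background.

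The shared probe set stood at 40.5 ± 4.51 in CD4T, 97.0 ± 0.84 in NKT, 97.7 ± 0.42 in CD8abT, 97.6 ± 0.66 in CD8aaT, 24.0 ± 0.73 in B2 and 24.4 ± 2.41 in B1. Its 3 high groups overlapped with their neighbours, unlike those of Trgv1, where NKT was below both RTOC groups. CD4T was above both B cell groups, which overlapped. The same orders and the same overlaps were found after quantile normalization over all 16 arrays.

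**Figure D2:**
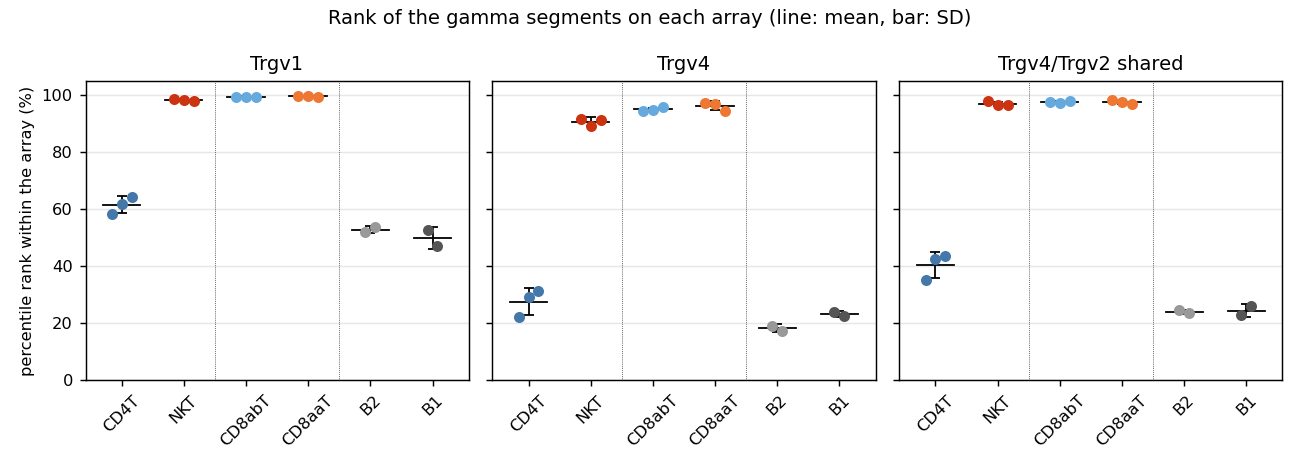
Percentile rank of the 3 gamma probe sets within each array (vertical axis, % of 12422 probe sets at or below), with 1 point per array in the 6 groups, a line at the mean and a bar for the SD. Ranks of NKT, CD8abT and CD8aaT arrays are 89.2 or higher in every panel, and those of CD4T, B2 and B1 arrays are 64.3 or lower.

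On the quantile-normalized log2 scale, the mean of CD4T arrays exceeded the mean of the 4 B cell arrays by 0.52 for Trgv1, 0.31 for Trgv4 and 0.78 for the shared probe set. On the deposited scale the same distances were 0.06, -0.29 and 0.24, so the sign for Trgv4 depends on the scaling. For NKT cells the quantile-normalized distances to B cells were 4.58, 4.11 and 5.25. For CD8abT they were 5.86, 4.83 and 5.55, and for CD8aaT 6.21, 5.22 and 5.53. The distances of these 3 groups stayed between 3.62 and 6.64 on the deposited, the quantile-normalized and the median-centred scales, so the position of the RTOC cells far above B cells did not turn on the scaling. Signal at the 3' end of the Gapdh control over that at its 5' end, which depends on RNA quality, was 7.37 to 30.4 on RTOC arrays and 5.11 to 8.48 on the others, and its part in the RTOC levels was not tested.

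Within each pair, differences are given as log2 of the innate-like group less the adaptive group, with the SE of a limma fit over all arrays. This SE is from the fit without a block, also where an adjusted p from the fit with the replicate number as a block stands beside it. In NKT cells Trgv1 was 15.5-fold above CD4T cells (3.95 ± 0.15, 95% interval of the fold 12.3 to 19.5, n = 3 against 3), Trgv4 15.5-fold (3.95 ± 0.20, interval 11.5 to 20.9) and the shared probe set 22.8-fold (4.51 ± 0.19, interval 17.3 to 30.1). CD4T cells are at or near the level of B cells, so these folds measure a distance to the background of the array and depend on how dim values are treated. With an offset of 32 added before log2 they were 11.3-fold, 7.01-fold and 12.6-fold. Among the increases of all 12422 probe sets the shared probe set ranked 1, Trgv4 3 and Trgv1 4, and with the offset they ranked 1, 8 and 2. Without the offset, the next below them was the cytokine gene Il4 at 3.84 ± 0.26, and a probe set without a listed gene, at 3.97 ± 0.48, stood second. All 3 members met the call (adjusted p under 0.05) that chose them, against 1.63% of all probe sets in this comparison, and nothing is read from that count. Between arrays of the same number the difference was 4.22, 3.92 and 3.72 for Trgv1, 4.08, 3.78 and 4.0 for Trgv4 and 4.94, 4.31 and 4.28 for the shared probe set, so each was present in every array of the group and not carried by 1 of them.

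In the RTOC pair, which the choice of the members did not use, none of the 3 probe sets passed the test, against 0.185% of all probe sets called. Trgv1 was 0.34 ± 0.15 (adjusted p = 0.83, limma), a fold of 1.26 with a 95% interval of 1.00 to 1.59. Trgv4 was 0.53 ± 0.20 (adjusted p = 0.69), a fold of 1.45 with an interval of 1.07 to 1.95. The shared probe set was 0.10 ± 0.19 (adjusted p = 0.94), a fold of 1.07 with an interval of 0.81 to 1.41. Before adjustment, p was 0.048, 0.019 and 0.61, and 749 of 12422 probe sets had an unadjusted p under 0.05. With the replicate number as a block the adjusted p was 0.17 for Trgv1 and 0.15 for Trgv4, still above the threshold. Trgv1 was higher in the CD8aaT array of each number (0.28, 0.23 and 0.49). Trgv4 was higher in 2 of 3 (1.06, 0.76 and -0.21), as was the shared probe set (0.54, 0.35 and -0.60), the exception being replicate 3 both times. Intervals of this width do not show that the lineages have the same level. For Trgv4 the upper limit of the fold was 2.21 when only these 2 groups were fitted, and also 2.21 without CD8aaT replicate 3, where the difference was 0.82. For beta-actin the corresponding end ratio was 6.57 to 11.6 on CD8abT arrays and 5.15 to 5.80 on CD8aaT arrays, without overlap, and its part in these differences was not tested.

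In the B cell pair none of the 3 passed, against 1.14% of all probe sets called, and none had an unadjusted p under 0.05, which 594 probe sets had. Trgv1 was -0.20 ± 0.19 in B1 minus B2 cells, Trgv4 0.17 ± 0.25 and the shared probe set -0.04 ± 0.23 (adjusted p = 1.00 for each, limma).

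The shared probe set did not keep step with Trgv1 across the high groups. On the same array, where a scale factor of the array cancels, Trgv1 was above the shared probe set by 0.57 ± 0.13 on the log2 scale in NKT cells (SD, n = 3; 0.42 to 0.67), by 1.94 ± 0.50 in CD8abT cells (1.36 to 2.28) and by 2.17 ± 0.27 in CD8aaT cells (1.90 to 2.45). NKT arrays did not overlap with RTOC arrays, so the signals of the shared probe set were higher relative to Trgv1 in NKT cells. Trgv1 was above Trgv4 by 1.81 ± 0.20 in NKT, 2.89 ± 0.41 in CD8abT and 2.70 ± 0.38 in CD8aaT cells. On the deposited scale NKT and RTOC arrays again did not overlap. After quantile normalization they did overlap for Trgv4. There Trgv1 and Trgv4 read 11.12 and 9.11 on CD8abT replicate 3, and 10.46 and 8.35 on NKT replicate 1. Distances between probe sets have no meaning as amounts, because probes differ in how brightly they bind, and only their change from group to group is described. In CD4T and B cells, where all 3 probe sets are at or near background, the distance from Trgv1 to the shared probe set lay between 1.02 and 1.46. The distance from Trgv1 to Trgv4 was 1.82 ± 0.045 in CD4T cells (SD, n = 3), close to that in NKT cells. It was 1.65 ± 0.12 in B2 and 1.28 ± 0.12 in B1 cells (SD, n = 2 each). The comparison crosses pairs, and the processing of the pairs cannot be told apart from the cells.

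**Figure D3:**
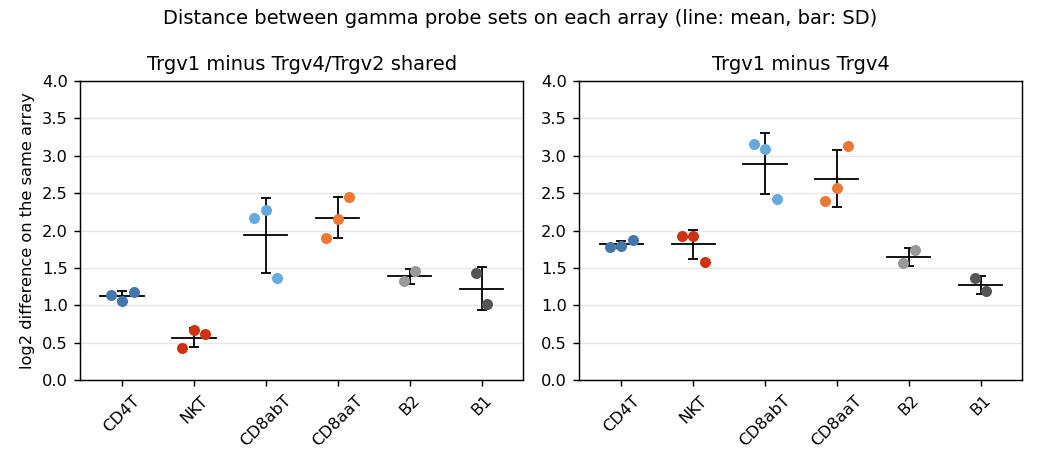
log2 distance on the same array (vertical axis) from Trgv1 down to the probe set shared by Trgv4 and Trgv2 (left) and to Trgv4 (right), with 1 point per array in the 6 groups, a line at the mean and a bar for the SD. On the deposited scale shown, NKT arrays are below all RTOC arrays in both panels, at 0.42 to 0.67 on the left. After quantile normalization the groups of the right panel overlapped.

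The alpha and beta segments, whose products form the receptor of conventional T cells, NKT cells and the RTOC cells sorted on TCRb, were not called in either T cell pair. They were measured by 10 probe sets of 6 genes, and 0 were called in NKT against CD4T cells (1 at an unadjusted p under 0.05; limma), with a median difference of 0.01 against -0.03 over all probe sets. The largest values were those of Trbv13-2, a beta segment that many NKT cell receptors use, at 0.58 ± 0.28 (adjusted p = 0.84, and 0.041 with the replicate block), and of Trbv1 at 0.50 ± 0.15 (adjusted p = 0.21). Each of these genes had another probe set near 0, at -0.06 ± 0.16 for Trbv13-2 and 0.08 ± 0.11 for Trbv1, and segments of 1 family share sequence. In CD8aaT against CD8abT cells 0 of 10 were called, also at an unadjusted p, with a median of -0.01 against -0.05 over all. In B1 against B2 cells 1 fell, a probe set of Trbv1 (-0.66 ± 0.13, adjusted p = 0.022), whose call was lost without replicate 1 of every group (adjusted p = 0.11).

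The summed intensity of the 10 alpha and beta probe sets was 6033 to 6401 on CD4T arrays, 6180 to 6717 on NKT arrays, 13237 to 19027 on CD8abT arrays and 15374 to 18700 on CD8aaT arrays, against 556 to 705 on B cell arrays. The sums of all T cell groups were thus above those of the B cells, CD4T included. Bright probe sets weigh most in such a sum, on CD4T arrays above all 1 of Trbv1 (mean log2 level 12.1). That probe set stood at the 99.7 percentile in CD4T and 75.6 in B2 cells, while that of Trav19 stood at 21.3 and 28.9. The sum of Trgv1 and Trgv4 was 93.5 to 111 on CD4T arrays, inside the 90.0 to 114 of the B cell arrays, and 1524 to 1707 on NKT arrays. On the deposited scale, which differs between the pairs, CD4T arrays thus lay in the range of the B cells for the gamma sum. That position depends on the scaling. After quantile normalization every CD4T array was above every B cell array for Trgv1, by 0.52 on average on the log2 scale, but not for Trgv4. Within the splenic T pair, the alpha and beta sums of CD4T arrays overlapped those of NKT arrays.

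**Figure D4:**
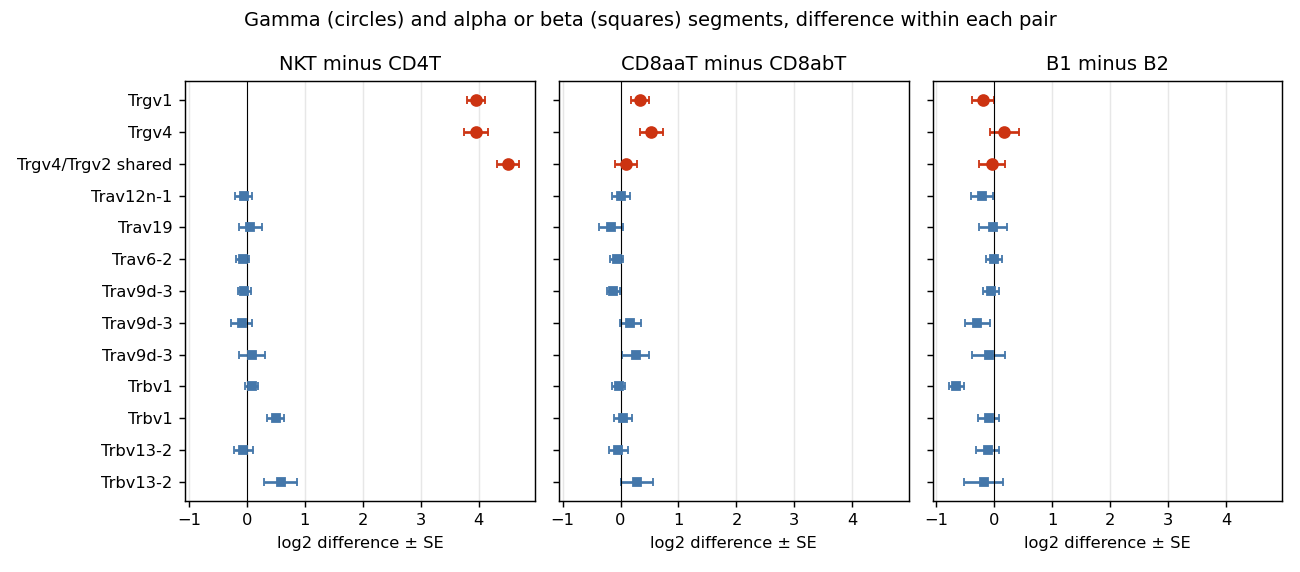
log2 difference within each pair (horizontal axis, ± SE of the fit) of the 3 gamma probe sets (circles) and the 10 alpha and beta probe sets (squares, 1 row per probe set). The gamma probe sets are at 3.95 to 4.51 in NKT minus CD4T cells and between -0.20 and 0.53 in the other pairs, while the alpha and beta probe sets lie between -0.66 and 0.58 over all 3 pairs.

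The other genes of the pathway were described by their counts. Of the receptor complex and its first signalling steps, such as the CD3 chains and the kinase Zap70, 13 of 15 genes were measured by 22 probe sets, and 0 were called in any pair (3 at an unadjusted p under 0.05 in the NKT pair, 1 in the RTOC pair and 1 in the B cell pair; limma). Their median difference was 0.04 in the NKT pair and -0.14 in both other pairs. With the replicate block 2 of the 3 probe sets of Zap70 were called higher in NKT cells (0.64 ± 0.20 and 0.66 ± 0.38, block adjusted p = 0.0041 and 0.0094, the third at -0.09 ± 0.15) and Cd247, the zeta chain, lower (-0.69 ± 0.28, block adjusted p = 0.0046). The other probe set of Cd247 was at 0.02 ± 0.15. The block also called 1 probe set of the phosphatase Ptprc higher in CD8aaT cells (0.61 ± 0.37, block adjusted p = 0.028) and the kinase Fyn lower in B1 cells (-0.93 ± 0.36, block adjusted p = 0.0071). The other probe sets of Ptprc were at -0.22 ± 0.14 and 0.05 ± 0.63 in CD8aaT minus CD8abT cells and were not called. The SE values printed here are those of the fit without the block, so they do not belong to the block adjusted p.

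Of the recombination and pre-receptor genes, 8 of 12 were measured by 12 probe sets. Both calls in NKT cells were of Dntt, which encodes the polymerase that adds bases at the joints of rearranging segments: it fell on 2 of its 3 probe sets (-0.67 ± 0.14, adjusted p = 0.018, and -0.71 ± 0.17, adjusted p = 0.049). Without replicate 1 of every group the second of these was not called (adjusted p = 0.33), and the block also called Hmgb2, a DNA-bending cofactor of the recombinase, higher (0.62 ± 0.40). The recombinase genes Rag1 and Rag2 were not called in any pair, and 0 of the 12 probe sets were called in the RTOC pair (2 at an unadjusted p under 0.05) and in the B cell pair (0). Rag2 stood at the 24.2 ± 16.9 percentile in CD8abT cells (SD, n = 3) and, on average, between 15.3 and 16.8 in the other groups.

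Of factors that act on the gamma locus or on the choice of the gamma-delta lineage, 18 of 24 genes were measured by 24 probe sets, with 2 genes higher and 1 lower in NKT cells. Zbtb16, which encodes the transcription factor PLZF of NKT cells and of a subset of gamma-delta T cells, rose by 3.23 ± 0.26 (adjusted p = 5.8e-06) on 1 of its 2 probe sets, and its other probe set was at 0.00 ± 0.15. Id2, an inhibitor of E proteins, rose by 2.60 ± 0.36 (adjusted p = 0.0010), and Lef1, a factor of naive T cells, was -0.62 ± 0.13 (adjusted p = 0.029). With the block Gata3 was also called higher, and Id3, Myb and the other Lef1 probe set lower. In CD8aaT cells Id2 alone rose (1.97 ± 0.36, adjusted p = 0.049), a call lost without replicate 1 of every group (adjusted p = 0.11). With the block Il7r (1.71 ± 0.41) and Gata3 (0.74 ± 0.31) were called higher as well, and Notch1 (-0.71 ± 0.17) and 1 probe set of Lef1 (-1.31 ± 0.57) lower, the other being at -0.08 ± 0.13. In B1 cells none was called (3 at an unadjusted p under 0.05; limma), and the block called Id3 and Myb lower.

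Il7r encodes the receptor of the cytokine that opens the gamma locus for rearrangement in thymocytes, and Stat5b carries its signal. Il7r stood at the 98.5 percentile in CD4T, 98.9 in NKT, 80.1 in CD8abT, 93.6 in CD8aaT, 28.5 in B2 and 20.1 in B1 cells. It was thus low in B cells, as the gamma segments were, and high in CD4T cells, where they were low. Stat5b stood at 51.3 in CD4T, 50.9 in NKT, 60.04 in CD8abT, 55.2 in CD8aaT, 53.1 in B2 and 52.4 in B1 cells. Stat5a, the other Stat5 gene of the list, stood higher on both of its probe sets. They were at 90.9 and 89.6 in CD4T, 88.7 and 87.2 in NKT, 95.7 and 93.7 in CD8abT and 93.7 and 92.2 in CD8aaT cells. In B cells they were at 83.8 and 85.6 in B2 and 82.5 and 85.7 in B1. The PLZF gene Zbtb16, on the probe set that rose, was at 19.5 in CD4T, 78.0 in NKT, 14.0 in CD8abT and 20.1 in CD8aaT cells. Its other probe set was at 45.3 in CD4T, 45.6 in NKT, 49.5 in CD8abT and 47.2 in CD8aaT cells. The low rank in the RTOC groups was thus seen on the first of these only, and the part of Zbtb16 in the gamma levels was not tested.

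Labels were read against marker genes. T cell markers had a median percentile of 83.8 to 96.4 on T cell arrays and 25.7 to 31.5 on B cell arrays, and B cell markers one of 94.8 to 97.7 on B cell arrays and 48.6 to 75.7 on T cell arrays. Of the T cell markers, 11 probe sets of 8 genes, 0 were called in any pair (2, 5 and 1 at an unadjusted p under 0.05 in the NKT, RTOC and B cell pairs; limma), and the block called 2 lower in NKT cells and 5 lower in CD8aaT cells, among them Cd5 in both, and 1 higher in B1 cells. Of the genes of the sorting gates, 21 probe sets of 6 genes, 0 were called in the NKT pair (1 at an unadjusted p under 0.05; limma), 2 in the RTOC pair and 1 in the B cell pair. Klrb1c, which encodes the NK1.1 of the splenic T gates, had no probe set of its own and is not in these counts. A probe set that carries the symbols Klrb1b and Klrb1c was at 3.67 ± 0.15 in NKT minus CD4T cells. Cd8b1, absent from the CD8aaT gate, was -5.51 ± 0.34 in CD8aaT minus CD8abT cells, and Cd8a, which both RTOC gates require, was also lower (-0.80 ± 0.14, adjusted p = 0.030). In the B cell pair the called gene was Ighd, at -1.25 ± 0.18 in B1 minus B2 cells, B1 being the group gated on less IgD. Itgam, which encodes the CD11b of the B1 gate, had a log2 level of 5.37 in B1 and 5.36 in B2 cells (0.0072 ± 0.17, adjusted p = 1.00), so its probe set did not set the B1 cells apart, and Cd4 in the NKT pair was not called either (-0.64 ± 0.17, adjusted p = 0.11, and 0.0095 with the block). Replicate 1 of NKT and CD4T cells stood apart from replicates 2 and 3 over all probe sets, and without replicate 1 of every group the member differences in the NKT pair stayed between 3.82 and 4.30. The gamma levels of the 3 NKT arrays did not set replicate 1 apart for Trgv4, and for Trgv1 and the shared probe set replicate 1 was the highest.

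Of 12 markers of gamma-delta T cells fixed as a list, 6 were measured by 7 probe sets (Il17a, Ccr6, Blk, Sox13, Il1r1 and Maf), and the defining delta chain gene Trdc was not among them. In the NKT pair 0 were called (0 at an unadjusted p under 0.05; limma), with a median of -0.05 against -0.03 over all probe sets, and their summed intensity was 607 to 781 on NKT and 628 to 783 on CD4T arrays. In the RTOC pair 0 were called (2 at an unadjusted p under 0.05), with a median of 0.23 against -0.05 and sums of 319 to 948 on CD8aaT and 294 to 329 on CD8abT arrays. The top of that range is CD8aaT replicate 2, on which the kinase gene Blk, also a B cell gene, had an intensity of 593 against 16.7 and 130 on replicates 1 and 3. On that array Trgv1 was at 11.76 and Trgv4 at 9.19, beside 11.67 and 9.28 on replicate 1. Il17a was between the 8.4 and 14.5 percentile in every group. In B1 cells 1 marker, Ccr6, fell (-2.51 ± 0.18, adjusted p = 3.1e-06). Whether gamma-delta cells lie within the sorted groups was not tested.

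Of 11 NK cell markers 9 were measured by 11 probe sets. Klrd1 (2.69 ± 0.37, adjusted p = 0.0010), the adaptor Tyrobp (1.76 ± 0.36, adjusted p = 0.021) and perforin, Prf1 (0.58 ± 0.14, adjusted p = 0.049), were higher in NKT cells, and Klrd1 in CD8aaT cells (2.20 ± 0.37, adjusted p = 0.031). The summed intensity of the 11 probe sets was 402 to 517 on CD4T, 1010 to 1476 on NKT, 329 to 480 on CD8abT and 862 to 1192 on CD8aaT arrays, without overlap between the RTOC groups. Klrd1 was the brightest of them in NKT and CD8aaT cells (mean log2 level 9.35 and 9.38) and weighs most in the sums there. The block called Gzma higher in NKT cells too, and Tyrobp, Fcer1g and Klrb1a in CD8aaT cells. Ncr1, the defining NK cell receptor, was at the 5.7 to 10.0 percentile in all 6 groups. Of 9 myeloid markers, measured by 13 probe sets, Lyz2 (2.08 ± 0.35) and Csf1r (0.60 ± 0.13) were higher in NKT cells, with sums of 1386 to 1681 on NKT and 1357 to 2643 on CD4T arrays, and Lyz2 was higher in B1 cells (2.29 ± 0.43). Each of these genes had another probe set that was not called. That of Lyz2 had a mean log2 level of 4.02 in NKT, 3.85 in CD4T, 4.51 in B1 and 4.73 in B2 cells. That of Csf1r was at 4.25 in NKT and 4.26 in CD4T cells. Of 10 B cell markers, 9 of them measured, 0 were called in the NKT and RTOC pairs (0 at an unadjusted p under 0.05 in both), and Cr2 (-2.06 ± 0.19) and Cd22 (-0.87 ± 0.17) fell in B1 cells, while the block called Blnk and Ms4a1 higher in NKT cells. The sum of B cell markers was 1106 to 2277 on CD4T and 1307 to 2968 on NKT arrays, against 16634 or more on B cell arrays. The part of all these markers in the gamma differences was not tested.

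The gene whose rank over the 16 arrays was most like that of each gamma probe set was Cd160, which encodes a receptor of cytotoxic and NK cells (Pearson r = 0.99 with Trgv1, 0.98 with Trgv4 and 0.99 with the shared probe set). This measure was chosen after the levels were seen. The arrays share their groups and their normalization, so the points are not independent. Cd160 was at the 35.9 percentile in CD4T, 88.2 in NKT, 90.7 in CD8abT, 95.5 in CD8aaT, 11.2 in B2 and 8.8 in B1 cells. Its log2 level was 4.86, 4.94 and 5.02 in CD4T against 8.60, 7.97 and 8.02 in NKT, and 7.08, 7.54 and 8.59 in CD8abT against 8.56, 8.51 and 8.84 in CD8aaT. As with the gamma segments, only the splenic groups were separated. After it came, in differing order, the chemokine receptor gene Ccr9 (r = 0.96 for each of the 3), the protease gene Ctsw (0.96, 0.93 and 0.96) and Padi2 (0.94, 0.93 and 0.94). The 3 gamma probe sets were like one another at r = 0.99 to 1.00. Trgv1 and Trgv4 were chosen for their large NKT to CD4T difference, and the shared probe set carries the symbol of Trgv4. Their mutual likeness therefore follows in part from the choice, and nothing is read from it.

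By the likeness fixed as the rule, Pearson r of log2 values centred within each pair over 16 arrays, other genes came first. Klrk1, an activating receptor gene of NK cells, led for Trgv1 (r = 0.98), followed by Klra3, Mmp9, Fasl and Ccr2. Mmp9, a matrix protease gene, led for Trgv4 (r = 0.97), followed by Ifng, Sephs2, Klrk1 and Ccr2, and for the shared probe set (r = 0.98), followed by Sephs2, Il4, Klrk1 and Fasl. None of these genes was among the first 5 by rank, and centring takes the level of each pair out by construction. What is left of the members is mainly the NKT to CD4T difference that chose them (3.95 to 4.51, against -0.20 to 0.53 in the other pairs). This likeness therefore mostly restates which genes were higher in NKT cells. Il4 stood at the 13.4 and 15.7 percentile in CD8abT and CD8aaT cells and Ifng at 4.2 and 10.5.

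**Figure D5:**
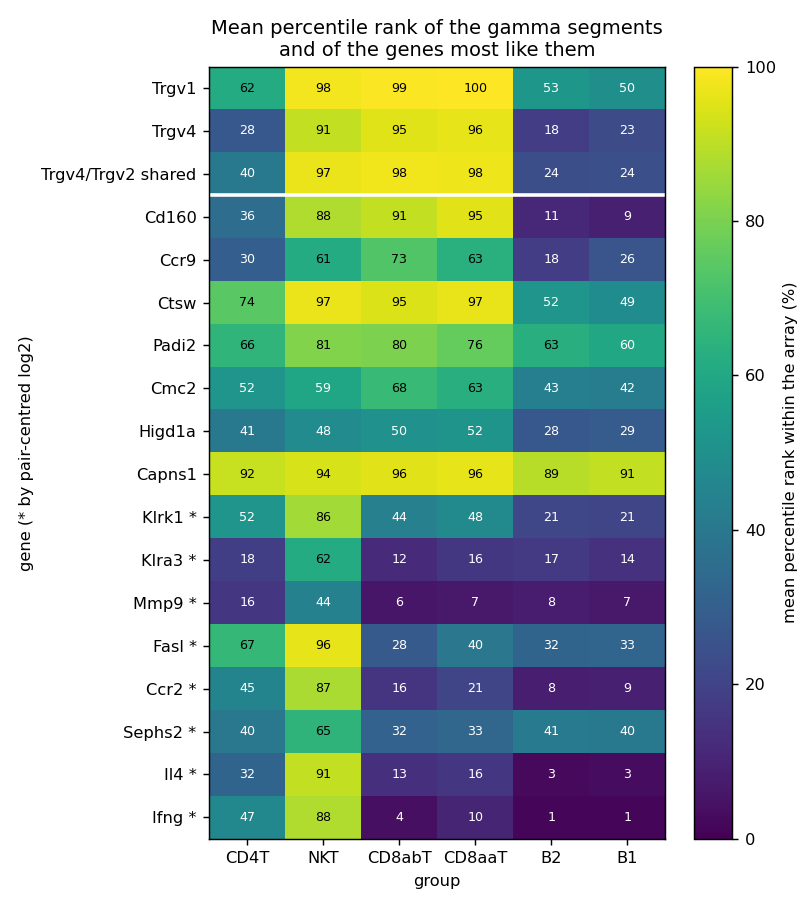
Mean percentile rank within the array (colour and number, %) in the 6 groups (columns) of the 3 gamma probe sets (top rows) and of the genes most like them, by rank over all arrays or, where starred, by pair-centred log2 values. Cd160 is high in NKT, CD8abT and CD8aaT cells and low in CD4T and B cells like the gamma segments, while the starred genes are higher in NKT cells than in every other group.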

How the data were processed

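RNA of 16 samples was measured on 1 single-colour Affymetrix array each. The deposited values are intensities on a linear scale, 1 per probe set and array, made with RMA per the submitters' processing notes. No source used here gives its settings or says which arrays it normalized jointly. Of 12488 probe sets 66 controls were left out, leaving 12422, and 10833 had 1 gene symbol, 396 several and 1193 were not listed. Differences of log2 values were fitted by lmFit and eBayes of limma (version 3.58.1; R version 4.3.3) with 6 group means over all arrays, two-sided, and adjusted by Benjamini-Hochberg, called under 0.05. The script was tested on simulated data. Members, gene lists and tests were chosen with earlier results of these data known. The text names all member probe sets, up to 4 called genes per list and pair, and the 5 genes most like each member, and a few others (Rag1, Rag2, Il7r, Stat5a, Stat5b, Ncr1, Blk, Klrb1c, Trav19, Trbv13-2, Trbv1, genes called only with the block, and the genes most like by rank) were picked after values were seen.

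Replicate numbers were taken to pair samples in all 3 pairs of groups, the B cells included. Deviations from group means of same-numbered arrays correlated for numbers 1, 2 and 3 at 0.76, 0.65 and 0.67 (splenic T pair) and 0.64, 0.60 and 0.66 (RTOC pair), above the minimum of 0.1. Unlike numbers 2 and 3 of the splenic pair correlated as well (0.67 and 0.57), so there the values set replicate 1 apart and do not tell numbers 2 and 3 from each other. In the B cell pair same numbers correlated at 0.69 and unlike numbers at -0.69. With n = 2 the deviations in a group mirror each other, so these are 1 value with its sign turned. They are a weak check, and the block calls in B cells rest on it. The pairing comes from the data, not from a label.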

Additional observations from a re-analysis of the deposited data

How the results depend on the processing

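Each member difference was refitted under 24 alternatives. In the NKT pair all 3 probe sets stayed above 0 under each, and an offset of 32 before log2 lowered them to 3.503 for Trgv1, 2.81 for Trgv4 and 3.66 for the shared probe set. Leaving out 1 array gave 3.89 to 4.02, 3.89 to 4.03 and 4.37 to 4.58. In the RTOC pair no member was called under any alternative (lowest adjusted p = 0.095, for Trgv4), and leaving out 1 array gave 0.19 to 0.45 for Trgv1, 0.37 to 0.82 for Trgv4 and -0.049 to 0.31 for the shared probe set. The shared probe set also turned to -0.019 with quantile normalization and -0.13 without replicate 1 of every group. In the B cell pair none was called, and the shared probe set turned to 0.019 with quantile normalization, 0.015 with median centring and 0.027 without replicate 1 of every group, while leaving out 1 array gave -0.090 to 0.018. With the replicate number as a block no member call changed.

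The counts of called probe sets moved more than the members. They were 202, 23 and 142 in the NKT, RTOC and B cell pairs, and 601, 398 and 353 with the replicate block. They were 356, 190 and 227 without replicate 1 of every group. With only the 2 groups compared the RTOC count was 2 and the B cell count 50, and with the offset 9 and 214. A filter at the median level left 133 in the NKT and 71 in the B cell pair, with fewer tested. Leaving out 1 array gave 134 (NKT replicate 2) to 242 in the NKT pair, 10 (CD8aaT replicate 2) to 57 (CD4T replicate 1) in the RTOC pair, where CD4T 2, NKT 3, CD8abT 2 and CD8aaT 3 also moved the count over 1.5 times, and 64 (B2 replicate 2) to 164 in the B cell pair, where B2 1 and B1 2 did so too. The cause was not tested. Of 66 list counts with the block or without replicate 1 of every group, 29 differed by over 1.5 times. Of 22 called list probe sets 0 changed sign under the 2 other scalings. Dim values limit the CD4T and B cell levels.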
